A study of Mus musculus with 4 samples.

Results

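The less common leukocytes of the nasal mucosa were compared between the Vehicle-OVA and the Vehicle library of a mouse model of allergic rhinitis. A cell belonged to this set if it lay outside the 3 largest classes, that is, if it held fewer than 2 summed UMIs (unique molecular identifiers, 1 for each captured RNA molecule) of the neutrophil genes Csf3r, Cxcr2 and Il1r2, of the macrophage genes C1qa, C1qb and C1qc, and of the T cell genes Cd3e, Cd3d and Cd3g. Cells first had to hold at least 500 UMIs and 200 genes with under 10% of UMIs from mitochondrial genes. This left 7993 cells of the 43225 that passed the quality limits in both libraries (72320 in all 4 libraries of the series): 5238 in Vehicle and 2755 in Vehicle-OVA. The series holds 1 droplet single-cell RNA-seq library of CD45+ cells for each of Vehicle, Vehicle-OVA, Ribavirin and Ribavirin-OVA, from C57BL/6 mice aged 8 weeks. OVA is ovalbumin, given by injection with alum to sensitise the mice and then through the nose, and ribavirin is an antiviral drug. The labels name magnetic enrichment of CD45+ cells, the series text names fluorescence-activated sorting, and the number of mice in a library is not given in the sources used here. With 1 library in each group there was no replicate check, so differences are given as sizes with 95% counting intervals, which cover the counting error of these libraries and not the variation between mice.

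Allergic rhinitis is a type 2 response, in which allergen-specific T helper cells, group 2 innate lymphoid cells (ILC2s), mast cells and basophils release IL-4, IL-5 and IL-13, and B cells switch to IgE. Dendritic cells (DCs) carry antigen to lymph nodes and present it on MHC class II, monocytes enter inflamed mucosa and become macrophages or DCs, and NK cells and plasmacytoid DCs (pDCs) are better known from antiviral responses, through IFN-γ and type I interferon. The transcription factor STAT6 carries the IL-4 and IL-13 signal to genes such as Arg1, Chil3 and Ccl24, and IFN-γ drives Ciita, the master regulator of MHC class II genes, and the chemokines Cxcl9 and Cxcl10.

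The less common cells were 20.4% (exact binomial interval 19.9 to 20.9%) of filtered Vehicle cells and 15.7% (15.2 to 16.3%) of filtered Vehicle-OVA cells, a ratio of 0.773 (0.738 to 0.810). The neutrophil set removed 40.7% of filtered cells in Vehicle and 70.9% in Vehicle-OVA, the macrophage set 25.1% and 16.2%, and the T cell set 28.7% and 9.17%. In the ribavirin-treated pair the share of less common cells was 20.9% without and 21.2% with OVA, a ratio of 1.01. The median less common cell held 6496 UMIs in Vehicle and 2069 in Vehicle-OVA. Vehicle and Vehicle-OVA shared 174 cell barcodes among the deposited cells and 1 among the less common cells.

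Much of the Vehicle-OVA set was not made of recognisable less common leukocytes. Each cell was assigned to a class by at least 2 summed UMIs of that class's gate genes, such as Ncr1, Klrb1c and Klre1 for NK cells. The 13 leukocyte classes took 3374 cells (64.4%) in Vehicle but 738 (26.8%) in Vehicle-OVA. Cells that passed no gate were 872 (16.6%) in Vehicle and 1338 (48.6%) in Vehicle-OVA, with a median of 2148 and 1347 UMIs. Gates built from neutrophil, macrophage, osteoclast and T cell genes took 292 cells (5.57%) and 480 (17.4%). Of these, 78 and 96 passed a gate of neutrophil granule genes (Ltf, Camp and Ngp). Gland genes such as Bpifb3 and Wfdc18 were among their leading genes in both libraries, and in Vehicle so was the neutrophil gene S100a8. When all less common cells were clustered, 61 of the 78 and 42 of the 96 fell in clusters with epithelial markers. Clusters with neutrophil markers held 1 and 34 of them, and a cluster led by Wfdc21 and S100a8 held 8 and 5. The cells past this gate were therefore mixed and cannot be called neutrophils as a whole. The nonleukocyte gates (epithelial, olfactory neuron, stromal and endothelial) took 314 (5.99%) and 45 (1.63%), and 386 (7.37%) and 154 (5.59%) passed several gates with no clear winner. The plot of composition shows this change of make-up, which makes every share among the less common cells depend on how many other cells were counted with them.

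**Figure D1:**
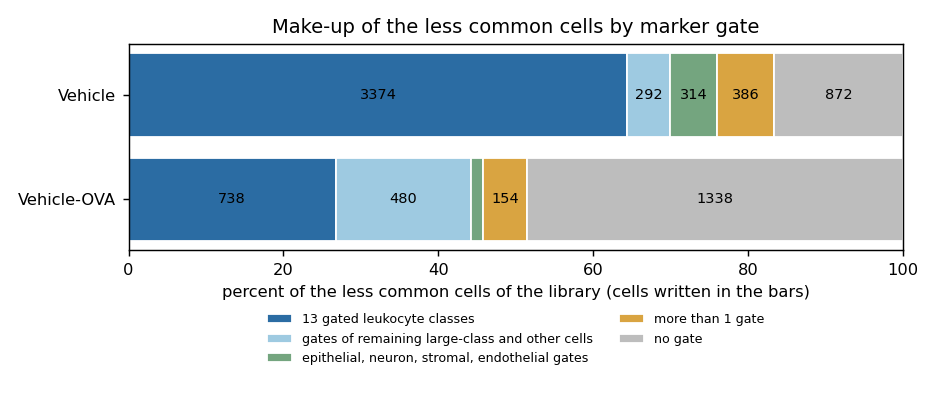
Cells of the less common set by kind of gate passed, as a percentage of the set in each library (horizontal axis in percent, 1 bar per library). Cells that passed no gate grew from 16.6% in Vehicle to 48.6% in Vehicle-OVA, and the 13 leukocyte classes shrank from 64.4% to 26.8%. The thin unlabelled segment in the Vehicle-OVA bar is the 45 nonleukocyte cells.

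The cells without a gate carried neutrophil and inflammatory transcripts. As CPM (UMIs of a gene scaled to 1e6 UMIs in all), summed over these cells, the neutrophil chemoattractant Cxcl2 stood at 24788 in Vehicle-OVA and 1912 in Vehicle. Ccl3, a chemokine of activated myeloid cells, stood at 9208 and 734, and Il1rn, the IL-1 receptor antagonist, at 8964 and 310. The calprotectin gene S100a8 was at 6385 and 2649 CPM. When all less common cells were clustered, 993 (74.2%) of the Vehicle-OVA cells without a gate fell in clusters with neutrophil markers, 335 of them in a cluster with 3 such markers detected and led by Prok2 and Atp6v0d2, the latter a gene of osteoclasts, whereas the largest group in Vehicle, 242 cells (27.8%), fell in a cluster with classical monocyte markers led by Ly6i and Lyz2. For Vehicle-OVA the label of less common leukocytes therefore held for a minority of the set, and the classes below are described one by one.

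Cells with at least 2 summed UMIs of the macrophage genes Mrc1, Ms4a7, Trem2 and Gpnmb, but too little C1q to be left out with the macrophages, were 85 in Vehicle and 234 in Vehicle-OVA, a ratio of shares of 5.23 (4.07 to 6.79). This ratio depended on the set rule. Over all filtered cells with no large class left out, cells past this gate had a ratio of shares of 0.990 (0.938 to 1.05). The rule kept 2.60% of them in Vehicle and 10.6% in Vehicle-OVA. In the 85 and 234 kept cells the eosinophil chemoattractant Ccl24 was at 8.77 CPM in Vehicle and 5196 in Vehicle-OVA. Arg1, which breaks down arginine and is a classic STAT6 target, was at 40.9 and 5559 CPM, the mannose receptor Mrc1, a gate gene, at 68.7 and 1248, and the elastase Mmp12 at 42.4 and 1188. Each of these transcripts stood far above its Vehicle level. These are genes of the macrophage class that the rule was meant to leave out.

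Among the 10 leukocyte classes with more than 8 cells in Vehicle, the share of the less common cells was lower in Vehicle-OVA for 8, with counting intervals below 1. Only the B cell-like interval lay above 1 (192 cells in Vehicle-OVA, 205 in Vehicle, ratio of shares 1.78, 1.45 to 2.18), and the ILC2-like interval included 1 (35 and 88 cells, 0.756, 0.496 to 1.13). Plasma cell-like cells had the lowest ratio, 0.151 (0.113 to 0.197), from 720 cells in Vehicle to 57 in Vehicle-OVA. This rank depended on the set rule, which kept 61.2% of the cells past the plasma cell gate in Vehicle and 30.2% in Vehicle-OVA. Over all filtered cells the ratio was 0.236 (0.201 to 0.276) past the plasma cell gate and 0.189 (0.148 to 0.237) past the NK gate. NK-like cells went from 464 to 54 (0.221, 0.164 to 0.294). In the ribavirin pair, 3 of the 10 intervals (NK-, cDC2- and classical monocyte-like) lay below 1, 7 included 1 and none lay above. These counts also depended on the set rule. Over all filtered cells of that pair the ratio was 2.68 (2.29 to 3.15) past the ILC2 gate and 1.44 (1.25 to 1.65) past the plasma cell gate. It was 0.755 (0.649 to 0.876) past the pDC gate and 0.722 (0.544 to 0.948) past the migratory DC gate. The rule kept 25.7% of the cells past the ILC2 gate in Ribavirin and 14.0% in Ribavirin-OVA. The plot of class shares sets both pairs side by side, and no difference between the pairs was tested.

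**Figure D2:**
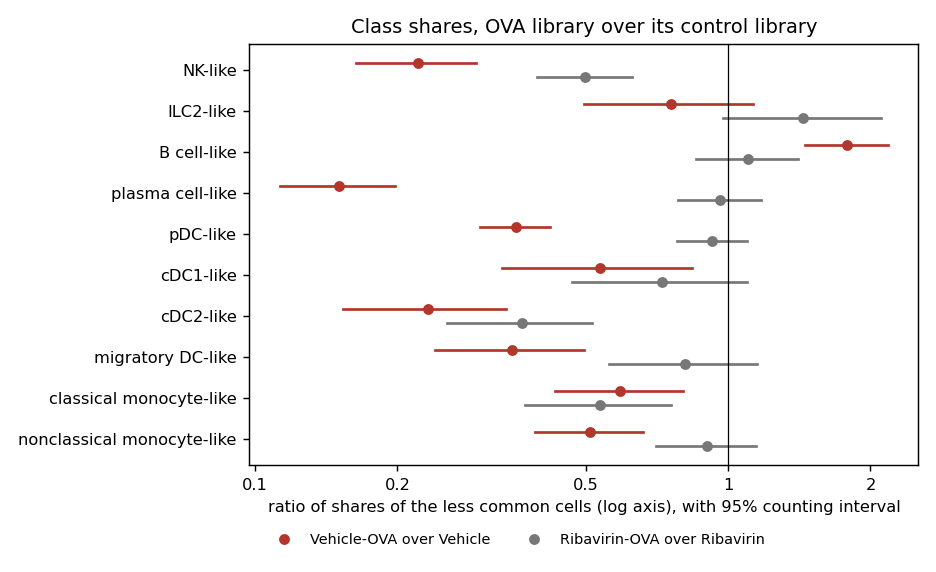
Ratio of each class's share of the less common cells in the OVA library to that in the library without OVA (horizontal log axis), for the Vehicle pair in red and the ribavirin pair in grey. Points are ratios and lines 95% counting intervals. In the Vehicle pair 8 of the 10 intervals lie below 1, and plasma cell-like cells lie at 0.151 in the Vehicle pair and 0.961 in the ribavirin pair.

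The DC classes were among those with smaller shares. cDC2-like cells (conventional type 2 DCs, specialised in priming helper T cells) went from 246 to 30 cells (ratio 0.232, 0.153 to 0.340), migratory DC-like cells, with the lymph node homing receptor Ccr7, from 207 to 38 (0.349, 0.240 to 0.495), and cDC1-like cells, with the cross-presentation marker Xcr1, from 92 to 26 (0.537, 0.334 to 0.838). pDC-like cells went from 881 to 165 (0.356, 0.300 to 0.421), and 29.7% and 57.6% of them held 5 to 10% mitochondrial UMIs. With the limit at 5% their log2 ratio moved from -1.49 to -2.14. Classical monocyte-like cells were 180 and 56 (0.592, 0.430 to 0.802), and nonclassical monocyte-like cells 279 and 75 (0.511, 0.391 to 0.662). The classical monocyte ratio depended on the set rule: counted over all filtered cells with no large class left out, cells past the classical monocyte gate had a ratio of shares of 0.945. As an alternative, every cell was thinned to 1000 UMIs before the set rule and the gates were applied, so the set itself changed. There were then 80 classical monocyte-like cells in Vehicle and 102 in Vehicle-OVA, and the log2 ratio changed from -0.76 to 1.02. Thinning also moved the log2 ratio of nonclassical monocyte-like cells from -0.97 to -0.14, of cDC2-like cells from -2.11 to -1.01, of migratory DC-like cells from -1.52 to -0.83 and of ILC2-like cells from -0.40 to 0.81. With a large-class limit of 1 UMI, cDC1-like cells moved from -0.90 to -0.16.

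B cell-like cells differed in quality between the libraries as well as in number. The median share of mitochondrial UMIs was 4.10% in Vehicle and 6.39% in Vehicle-OVA, and 46 of 205 cells (22.4%) against 157 of 192 (81.8%) lay between 5 and 10%. Among less common cells under 5% mitochondrial UMIs, B cell-like cells were 159 of 4504 (3.53%) in Vehicle and 35 of 2241 (1.56%) in Vehicle-OVA, and between 5 and 10% they were 46 of 734 (6.27%) and 157 of 514 (30.5%). With the limit at 5% the log2 ratio of shares thus turned from 0.83 to -1.18, so the direction of the B cell-like difference was set by cells with 5 to 10% mitochondrial UMIs. B cell-like cells of the ribavirin pair had the same feature, with 26.0% and 73.2% of cells between 5 and 10%. The part of RNA quality in the B cell-like results below was not tested.

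**Figure D3:**
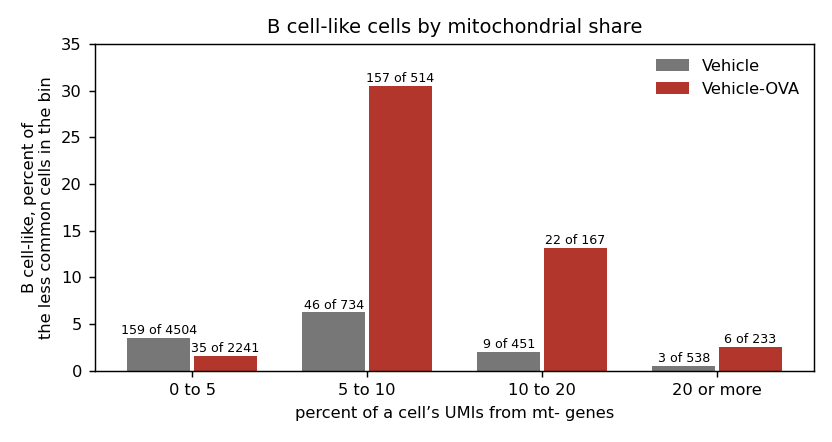
B cell-like cells as a percentage of the less common cells (vertical axis) within bins of the share of mitochondrial UMIs (horizontal axis, percent), for Vehicle and Vehicle-OVA. Bars are shares, and the text above each gives the B cell-like cells and all less common cells of the bin. Under 5% the share is 3.53% in Vehicle and 1.56% in Vehicle-OVA, and between 5 and 10% it is 6.27% and 30.5%.

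For genes, UMIs were summed over the cells of a class in each library and scaled to CPM, and the log2 ratio of Vehicle-OVA to Vehicle (with 10 CPM added to both) was centred on the median of the class's genes with at least 50 UMIs. In the classes compared over all genes, ratios called higher or lower below are at least 2-fold after this centring. Elsewhere these words refer to plain CPM. Folds are plain ratios of CPM. The medians removed were 0.20 to 0.38 on the log2 scale. Of the 13 leukocyte classes, 6 had at least 50 cells in each library. Genes were higher and lower at 150 (2.92% of those examined) and 379 (7.38%) in NK-like cells, 138 (2.93%) and 437 (9.29%) in B cell-like cells, 213 (2.73%) and 309 (3.96%) in plasma cell-like cells. They numbered 92 (1.09%) and 212 (2.51%) in pDC-like cells, 190 (4.32%) and 310 (7.05%) in classical monocyte-like cells, and 173 (3.48%) and 462 (9.3%) in nonclassical monocyte-like cells. On uncentred CPM the higher genes made up 60.8 to 84.2% of the calls in the 6 classes, against 24 to 40.8% after centring, so the split of calls into higher and lower rests on the centring. Between the 2 libraries without OVA (Ribavirin over Vehicle), far fewer of the same genes differed at least 2-fold. They numbered 11 (0.214%) in NK-, 68 (1.45%) in B cell- and 16 (0.205%) in plasma cell-like cells. In pDC-, classical and nonclassical monocyte-like cells they numbered 16 (0.189%), 21 (0.478%) and 11 (0.221%). Apart from B cell-like cells (832836 and 871331 UMIs), these classes held more UMIs in Ribavirin than in Vehicle-OVA. In NK-like cells these were 1800418 and 318619 UMIs. Counting error was therefore smaller without OVA in those classes, and its part in the difference was not tested.

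Monocyte-like cells held less MHC class II RNA in Vehicle-OVA, and so did the filtered cells left out of the set. Over these left-out cells Cd74 went from 8358 to 2189 CPM, H2-Aa from 4253 to 1148 and H2-Eb1 from 3902 to 624. The classical class was made up differently in the libraries: of the 180 Vehicle cells, 93 (51.7%) fell in the cluster with classical and 85 (47.2%) in the cluster with nonclassical monocyte markers, and of the 56 Vehicle-OVA cells 2 (3.57%) and 29 (51.8%), with 22 (39.3%) in clusters with macrophage markers. In classical monocyte-like cells the list summed to 16671 CPM in Vehicle and 7683 in Vehicle-OVA, 6 of 7 examined genes were lower and none higher, and the median centred log2 ratio was -1.54, where the median of all genes is 0. In nonclassical monocyte-like cells it summed to 20102 and 5697 CPM, 7 of 8 genes were lower and none higher, and the median was -1.99. H2-Eb1, a class II beta chain, went from 2472 to 259 CPM in nonclassical monocyte-like cells (fold 0.105, 0.0869 to 0.125) and from 1928 to 551 CPM in classical ones (0.286, 0.251 to 0.325). H2-Aa, a class II alpha chain, went from 3466 to 748 CPM and from 2623 to 1115 CPM, respectively. Cd74, the invariant chain that guides class II molecules, went from 7175 to 1884 and from 5948 to 2049 CPM. The peptide loading gene H2-DMb1 went from 347 to 110 and from 306 to 116 CPM, and Ctss, the protease that trims the invariant chain, was the gene of the list below the 2-fold limit in both classes.

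Class II genes share a promoter module that ends in a Y box, bound by the factor NF-Y. The RefSeq promoters (build GRCm38.p6, from 250 bases before to 50 after the start) held 8 of the 10 other class II list genes (Cd74 left out), and 6 of these 8 carried the letters TGATTGG on the forward strand. On either strand 7.82% of all 32851 promoters of that length held these letters. The 250 bases before the start of 3 genes that were lower in both monocyte-like classes are shown 5′ to 3′ on the coding strand, with TGATTGG in capitals. They were chosen from the genes that carry these letters, and H2-DMa, also lower in both classes, does not carry them. The sequences lie at chr17:34287824-34288073 (minus strand), chr17:34305617-34305866 (plus strand) and chr17:34152941-34153190 (plus strand).
H2-Aa: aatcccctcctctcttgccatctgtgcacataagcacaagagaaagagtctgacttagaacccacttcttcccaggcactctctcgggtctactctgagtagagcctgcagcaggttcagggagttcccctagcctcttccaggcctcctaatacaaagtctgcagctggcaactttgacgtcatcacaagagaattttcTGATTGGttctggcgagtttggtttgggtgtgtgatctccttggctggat
H2-Eb1: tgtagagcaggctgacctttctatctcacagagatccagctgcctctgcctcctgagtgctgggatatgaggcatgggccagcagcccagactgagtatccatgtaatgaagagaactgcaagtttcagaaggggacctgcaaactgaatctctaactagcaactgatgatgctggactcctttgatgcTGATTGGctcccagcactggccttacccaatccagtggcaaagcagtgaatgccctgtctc
H2-DMb1: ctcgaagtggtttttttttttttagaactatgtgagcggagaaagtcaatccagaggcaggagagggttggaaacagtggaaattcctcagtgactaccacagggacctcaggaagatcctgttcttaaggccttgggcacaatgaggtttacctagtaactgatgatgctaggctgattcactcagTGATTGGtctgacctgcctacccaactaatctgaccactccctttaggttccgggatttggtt
The capitals begin 50, 61 and 63 bases before the start, a description of the sequence only, since no binding was measured in these cells.

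The interferon-related genes of the monocyte-like classes were lower in part. Cxcl10, an interferon-induced chemokine for T and NK cells, went from 692 to 105 CPM in classical (fold 0.152, 0.112 to 0.202) and from 328 to 29.5 CPM in nonclassical monocyte-like cells (0.0899, 0.0488 to 0.152). Of the IFN-γ response list, 3 of 14 genes were lower in classical cells (Iigp1, Cxcl9 and Cxcl10), 1 was higher (Cd274, the checkpoint ligand PD-L1, 69.4 to 181 CPM), and the median was -0.74. In nonclassical cells 5 of 13 were lower (Gbp5, Gbp7, Cxcl9, Cxcl10 and Ciita), none was higher, and the median was -0.97. Of the interferon-stimulated list, 5 of 21 and 7 of 16 genes were lower and none was higher. Isg15, an antiviral ubiquitin-like protein, went from 209 to 44.2 CPM in nonclassical monocyte-like cells. In the ribavirin pair the class II list was lower as well, with medians of -2.42 and -1.59, and the IFN-γ list had medians of -1.42 and -0.63. The plot of monocyte genes gives each of these folds for both pairs.

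Genes of the IL-4 and IL-13 response were higher in classical monocyte-like cells: 5 of 8 examined genes were higher, 1 lower (Batf3) and the median was 1.61. With so few genes the median moved to 0.50 at a minimum of 20 UMIs per gene, to 5.40 at 200 and to 0.69 with gates on all filtered cells. Arg1 went from 26.3 CPM in Vehicle, in 5 of 180 cells, to 1978 CPM in Vehicle-OVA, in 21 of 56 cells (fold 75.1, 53.1 to 110). Chil3, the chitinase-like protein Ym1, went from 472 to 1997 CPM (fold 4.23, 3.81 to 4.69). Ccl24 went from 0.798 CPM, a single UMI, to 454 CPM, and Egr2, a transcription factor of alternative activation, from 28.7 to 173 CPM. Outside the list, the naming rule gave Spp1 (osteopontin, 38.3 to 1805 CPM) and Slc7a2 (an arginine transporter, 8.78 to 370 CPM). On the lower side the rule gave, beside Cxcl10, Lyz1, a lysozyme gene (59.8 to 2.10 CPM), and Fam26f (165 to 21.0 CPM). In the ribavirin pair Arg1 went from 20.1 to 292 CPM and Slc7a2 from 8.93 to 11.5. The clusters with macrophage markers that held 22 of the 56 Vehicle-OVA cells include 1 led by Mmp13, Ccl24 and Arg1, with Slc7a2 also among its leading genes. Arg1 stood at 1114 CPM over all left-out Vehicle-OVA cells, and the part of macrophage RNA or of cells between monocyte and macrophage in these values was not tested.

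Other lists in the classical monocyte-like cells also had higher members. The cytokines Tnf (23.9 to 297 CPM) and Il6 (23.9 to 84.2 CPM) were the examined genes of their list and both were higher. Vegfa (55.1 to 330 CPM) and Bnip3, a mitophagy receptor (19.95 to 82.1 CPM), were the 2 of 13 glycolysis and hypoxia genes above the limit. Ccr1, a receptor for CCL3 and CCL5, was at 245 and 623 CPM, and Cx3cr1, the fractalkine receptor of patrolling monocytes, at 222 and 73.6 CPM. Ccr2, the receptor for monocyte exit from bone marrow, was at 1565 and 1904 CPM, within the 2-fold limit.

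In nonclassical monocyte-like cells the genes that the naming rule gave for the higher side were the MAP kinase phosphatases Dusp16 (100 to 491 CPM, fold 4.89, 3.99 to 6.01) and Dusp5 (142 to 594 CPM, 4.19, 3.51 to 5.00), and Nr1h3, the sterol sensor LXRα (33.0 to 158 CPM, 4.78, 3.33 to 6.92). Both phosphatases were also higher in the ribavirin pair, at centred log2 ratios of 1.62 and 1.78, and Nr1h3 was at 0.21 there. For the lower side it gave Cxcl10, the monocyte chemoattractant Ccl2 (146 to 19.0 CPM) and the acute phase gene Saa3 (210 to 33.7 CPM). Listed genes outside the rule went further, with Ccl24 from 2.45 to 225 CPM and Ccl5 from 950 to 67.4 CPM. Both went the same way in the left-out cells, Ccl24 from 1.46 to 827 CPM and Ccl5 from 1188 to 227 CPM. The part of RNA from other cells in these 2 differences was not tested. Ccr2 was lower (861 to 468 CPM, fold 0.543, 0.469 to 0.626). The Saa3 difference rested on the set rule, since gating all filtered cells turned its centred log2 ratio from -2.54 to 0.37.

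pDC-like cells had the smallest shares of genes past the limit, 1.09% higher and 2.51% lower. Different clusters held most of them, 1 of 823 Vehicle and 13 Vehicle-OVA cells led by Cox6a2, and 1 of 5 and 144 cells led by Ptcra and Dntt. Ptcra, the pre-T cell receptor alpha chain that pDCs also express, went from 9.84 CPM in Vehicle (57 of 881 cells) to 93.0 in Vehicle-OVA (67 of 165 cells), a fold of 9.45 (7.00 to 12.9). The zinc transporter Slc30a4 went from 22.6 to 122 CPM and Tmem245 from 58.4 to 214 CPM. Calm4, a calmodulin-like gene, went from 38.8 to 5.20 CPM, Ly6d from 3074 to 1008, and Pfdn5, a subunit of the prefoldin chaperone, from 717 to 266. These differences recurred in the ribavirin pair, with centred log2 ratios of 1.78, 1.93 and 1.24 for the rises and -1.65, -1.76 and -1.34 for the drops. Of the 16 interferon-stimulated genes examined, 1 was higher (Rsad2, 5.75 to 33.8 CPM), none was lower and the median was -0.06, and Irf7, the regulator of type I interferon, was at 134 and 150 CPM. Of 11 class II genes, H2-Ab1 (1681 to 831 CPM) and H2-Eb1 (1407 to 584 CPM) were lower.

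In NK-like cells the chemokine genes Xcl1, Ccl5 and Cxcl9 were lower, Cxcl2 was higher, and the granzyme A, granzyme B and perforin genes stayed within the 2-fold limit. The clusters with NK markers held 232 Vehicle and 23 Vehicle-OVA cells in one led by Serpinb9b, 198 and 9 in one led by Klra8, and 123 and 45 in one with Xcl1 and Ifng among its leading genes. Xcl1, which attracts cDC1s, went from 702 to 81.6 CPM (fold 0.116, 0.0756 to 0.171), and Ccl5 from 12072 to 3057 CPM (0.253, 0.237 to 0.270). Granzyme A (Gzma) was at 8142 and 8574 CPM, granzyme B (Gzmb) at 774 and 1111, perforin (Prf1) at 283 and 242, and Ifng, the gene of IFN-γ, at 229 and 129. Of 19 NK effector genes 3 were lower (Ccl5, Xcl1 and the granule protein gene Nkg7), 1 was higher (Gzmc) and the median was -0.20. The rise of Gzmc from 13.7 to 430 CPM came from a single cell, which held 135 of its 137 UMIs, and without the highest cell of each library Gzmc was at 9.73 and 6.28 CPM. Treml2, an immune receptor, went from 11.4 to 107 CPM, and Setd7, a lysine methyltransferase, from 28.6 to 144 CPM. Akr1b10, an aldo-keto reductase, had 64 UMIs in Vehicle and 0 in Vehicle-OVA, which against the limit that 0 counts allow is at least 3.89-fold lower, and the linker histone gene Hist1h1e went from 143 to 25.1 CPM.

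Class II transcripts, which NK cells make little of, were also counted in NK-like cells, with Cd74 at 409 CPM and 62.8 in Vehicle-OVA. Of 6 class II genes examined 4 were lower and the median was -2.83, the lowest of the 6 classes. The list summed to 1253 CPM in NK-like cells of Vehicle and 276 in those of Vehicle-OVA. In the left-out cells Cd74 was at 8358 CPM in Vehicle and 2189 in Vehicle-OVA. The part of RNA from other cells in the class II differences of any class was not tested.

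ILC2-like cells (88 in Vehicle, 35 in Vehicle-OVA) were too few for a comparison over all genes, and their gate and list genes are given by UMIs. The IL-33 receptor Il1rl1 had 192 UMIs in Vehicle and 187 in Vehicle-OVA, a CPM fold of 2.66 (2.16 to 3.27), and Gata3, the lineage regulator, 276 and 205 UMIs (2.03, 1.68 to 2.44). Both are gate genes. Calca, the gene of the neuropeptide CGRP, went from 445 to 1049 CPM (2.36, 1.84 to 3.01), and Cish, a STAT5-induced inhibitor of cytokine signalling, from 263 to 578 CPM (2.20, 1.58 to 3.04). Icos, a costimulatory receptor, went from 309 to 859 CPM (2.78, 2.10 to 3.69). Among the cytokine genes, Il5 had 14 and 1 UMIs, Il13 had 11 and 4 UMIs, with a CPM fold of 0.993 (0.230 to 3.35), and Areg (amphiregulin) went from 1290 to 711 CPM (0.551, 0.432 to 0.696). Csf2, the gene of GM-CSF, had 41 UMIs in 13 cells in Vehicle and none in Vehicle-OVA. Lif, an IL-6 family cytokine, had 7 and 15 UMIs (5.85, 2.24 to 16.96), the 15 in 1 cell.

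B cell-like cells of the libraries came from different clusters: a cluster of 244 Vehicle and 22 Vehicle-OVA cells, and a cluster of 4 Vehicle and 183 Vehicle-OVA cells led by Cr2 and Ffar1. Cr2, the complement receptor CD21 of mature and marginal zone B cells, went from 63.0 CPM in 33 of 205 cells to 380 CPM in 110 of 192 cells (fold 6.03, 4.50 to 8.22). Fcer2a, the low affinity IgE receptor CD23, went from 99.8 to 288 CPM (2.89, 2.25 to 3.74), and Bcl6, the germinal centre regulator, from 28.5 to 96.4 CPM (3.38, 2.13 to 5.57). These were the 3 genes of the 15 examined in the B cell activation list past the limit, none was lower and the median was 0.17. In the ribavirin pair Cr2 went from 44.4 to 73.9 CPM and Fcer2a from 66.0 to 170. The ubiquitin ligase gene Rnf144a went from 7.13 to 73.5 CPM, and Lmo7 from 2.38 to 88.4 CPM, with 42 of its 77 UMIs in 1 cell.

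Some genes of dividing cells were lower in B cell-like cells. The genes that the naming rule gave for the lower side were replication-dependent histones, with Hist1h1b from 535 to 14.9 CPM (fold 0.0279, 0.0147 to 0.0482), Hist1h1e from 274 to 21.8 and Hist1h2ae from 146 to 13.8. Hist1h1b was found in 15 Vehicle cells and 5 Vehicle-OVA cells. Of 15 cell cycle genes 6 were lower (Top2a, Birc5, Stmn1, Ube2c, Cdca8 and Nusap1), none was higher and the median was -0.89, whereas in the ribavirin pair the median was 0.66. A UMI of Vpreb1, Igll1, Rag1 or Dntt was found in 12 of 205 cells (5.85%) in Vehicle and 6 of 192 (3.13%) in Vehicle-OVA, which at this depth does not limit the number of precursor B cells. Vpreb3, a surrogate light chain gene, was at 858 CPM (135 cells) and 242 CPM (90 cells), and a cluster of the set led by Vpreb1 and Rag1 held 33 Vehicle and 5 Vehicle-OVA cells. The part of precursors in the lower cell cycle genes was not tested. Ccl22, a chemokine for Th2 cells, reached 289 CPM in Vehicle-OVA, but 227 of its 252 UMIs were in 1 cell. Class II genes of B cell-like cells stayed within the limit, with 0 of 11 higher or lower.

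Plasma cell-like cells were held by other clusters too, 729 Vehicle and 2 Vehicle-OVA cells in a cluster led by Tnfrsf17 and Jchain and 27 and 91 cells in a cluster led by Slpi. Jchain, which links IgA and IgM polymers, went from 104762 CPM in Vehicle to 46080.5 CPM in Vehicle-OVA (fold 0.440, 0.435 to 0.445). Slpi, a secreted protease inhibitor of mucosa and glands, went from 6307 to 31171 CPM (4.94, 4.86 to 5.02). Ssr4, a subunit of the translocon of the endoplasmic reticulum, went from 5267 to 1702 CPM, Ly6d from 1206 to 348 and the bundling protein gene Pls1 from 63.0 to 10.4. In the unfolded protein and secretory list 1 of 18 genes was higher (Hyou1, an endoplasmic reticulum chaperone, 81.2 to 237 CPM), none was lower and the median was 0.08. Xbp1, the regulator of plasma cell secretion, was at 3148 and 4472 CPM.

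Several signalling genes were higher in plasma cell-like cells. Egr2 went from 7.82 to 101.2 CPM, the JAK-STAT inhibitors Socs1 from 10.6 to 64.0 and Cish from 5.39 to 40.2, and Cxcr4, the receptor that homes plasma cells, from 61.6 to 329 CPM (fold 5.35, 4.54 to 6.28). The anti-inflammatory cytokine gene Il10 went from 16.2 CPM in 77 of 720 cells to 92.3 CPM in 21 of 57 cells (5.71, 4.15 to 7.80). Of 18 immediate early and heat shock genes 7 were higher, among them Junb (437 to 1380 CPM) and Dusp1 (174 to 600 CPM), and none was lower. The heat shock gene Hspa1b had 140 of its 157 Vehicle-OVA UMIs in 1 cell, and the GTPase gene Gbp4 63 of 99. In the left-out cells Cxcr4 stood at 270 CPM in Vehicle and 487 in Vehicle-OVA, and Cish at 54.2 and 172. Junb stood there at 2960 and 4951 CPM and Dusp1 at 1240 and 4216, all 4 genes above the class in both libraries. Egr2 (89.2 CPM) and Socs1 (60.4 CPM) stood below the class in Vehicle-OVA. The part of RNA from other cells in these values was not tested. In the ribavirin pair Cxcr4 went from 73.1 to 349 CPM, Cish from 10.4 to 63.1 and Junb from 666 to 982.

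In the smaller DC classes some chemokine genes were lower in Vehicle-OVA and others higher. In migratory DC-like cells (207 and 38 cells) Il12b, the IL-12 p40 subunit, had 292 UMIs in 44 Vehicle cells and none in Vehicle-OVA, and Ccl5 went from 4359 to 951 CPM (fold 0.218, 0.191 to 0.248). Cd274 went from 246 to 659 CPM (2.68, 2.21 to 3.23), and Ccr7, a gate gene, was at 2357 and 2843. Ccl22 went from 932 to 612 CPM (0.657, 0.554 to 0.776), whereas Ccl3 went from 22.6 to 158 CPM (6.98, 4.25 to 11.6) and Cxcl2 from 152 to 485 CPM (3.201, 2.54 to 4.02). In cDC2-like cells (246 and 30 cells) Ccl17, the other chemokine for CCR4 on Th2 cells, had 832 UMIs in 43 Vehicle cells and none in Vehicle-OVA, and Ccl24 had none in Vehicle and 62 in 8 Vehicle-OVA cells. Cd74 went from 16768 to 9509 CPM there (0.567, 0.545 to 0.590), and H2-Eb1 from 7064 to 2785 (0.394, 0.367 to 0.423). In cDC1-like cells (92 and 26 cells) H2-Ab1 was at 9727 and 8159 CPM (0.839, 0.791 to 0.889), and Ccr2 at 321 and 71.7 (0.223, 0.111 to 0.404). Ccl17 was higher there, at 75.9 and 182 CPM (2.40, 1.52 to 3.70), as was Cxcl2, at 33.98 and 1584 CPM (46.6, 33.6 to 66.0), and Il12b had 23 and 3 UMIs (1.08, 0.207 to 3.56). Ccl3, Cxcl2 and Ccl24 were also high in the left-out Vehicle-OVA cells. The Vehicle-OVA cDC1-like cells were shallow, with a median of 1997 UMIs against 12126 in Vehicle.

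Mast cell-like and basophil-like cells were very few. Basophil-like cells were 2 of 5238 in Vehicle and 6 of 2755 in Vehicle-OVA, a ratio of shares of 5.70 (1.02 to 57.8). The basophil protease Mcpt8, a gate gene, had no UMI in the Vehicle cells and 124 UMIs in Vehicle-OVA, with a UMI in each of the 6 cells, and Hdc, which makes histamine, had 4 and 262 UMIs. Mast cell-like cells were 8 and 4. Their mucosal proteases Mcpt1 and Mcpt2 stood at 28220 and 24251 CPM in Vehicle and 114318 and 97646 CPM in Vehicle-OVA, and the chymases Cma1 (a gate gene) and Mcpt4 had 0 and 1 UMIs in Vehicle and 891 and 656 in Vehicle-OVA. With so few cells each level is the sum of a handful of cells.

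Most Il4 and Il13 UMIs of the less common cells in Vehicle-OVA lay in those basophil-like cells. Il4 had 20 UMIs over all less common cells in Vehicle and 191 in Vehicle-OVA, of which 170 lay in basophil-like cells and 144 in 1 of them. Il13 had 18 and 42 UMIs, 33 of the latter in basophil-like cells. The less common cells held 35.5% of the Il4 and 8.88% of the Il13 UMIs of the Vehicle-OVA library. Of the 20 filtered Vehicle-OVA cells past the basophil gate, the neutrophil set removed 14. Il5 had 14 and 1, all in ILC2-like cells, but these were 25.9% and 1.02% of the Il5 UMIs of each library, and in the left-out cells Il5 was at 0.310 and 1.15 CPM. Il6 had 208 and 408 UMIs, 124 of the latter in basophil-like cells. Over all less common cells, Ifng went from 652 to 99 UMIs (fold of CPM 0.487, 0.390 to 0.602) and the IFN-γ-induced chemokine gene Cxcl9 from 7155 to 328 (0.147, 0.131 to 0.164). The Th2 chemokine Ccl17 was lower too, from 2500 to 127 UMIs (0.163, 0.135 to 0.195), as was Csf2, from 147 to 5 (0.109, 0.0349 to 0.260).

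Across the 6 larger classes, several lists had medians of the same sign in the Vehicle pair. Class II medians were -2.83 to -0.30 and interferon-stimulated medians -0.90 to -0.038. Medians of the IL-4 and IL-13 response were 0.239 to 1.61. The free RNA lists of neutrophil genes (positive) and of plasma cell and epithelial genes (negative) also kept their sign. Ribosomal protein genes had medians of -1.21 to -0.84 in the Vehicle pair and -0.97 to -0.75 in the ribavirin pair, and the genes with the shortest transcripts (under 608 to 636 bases, depending on the class) had medians of -0.57 to -0.28. The stress granule list, with G3bp1 and its partners, had medians of 0.16 to 0.45 and at most 1 gene past the limit in a class (Ddx3x, an RNA helicase). NF-kB response genes were higher in every class, at 2 of 13 examined in NK-, 8 of 15 in B cell-, 8 of 15 in plasma cell-, 4 of 16 in pDC-, 9 of 16 in classical and 6 of 16 in nonclassical monocyte-like cells, and none was lower in any. Their medians were 0.35 to 1.15 in the Vehicle pair and -0.83 to -0.51 in the ribavirin pair. Cxcl2 was past the limit in each class, for example at 50.9 and 499 CPM in NK-like cells and 42.8 and 609 CPM in B cell-like cells. The plot of list medians shows the class II, ribosomal and NF-kB patterns side by side.

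**Figure D4:**
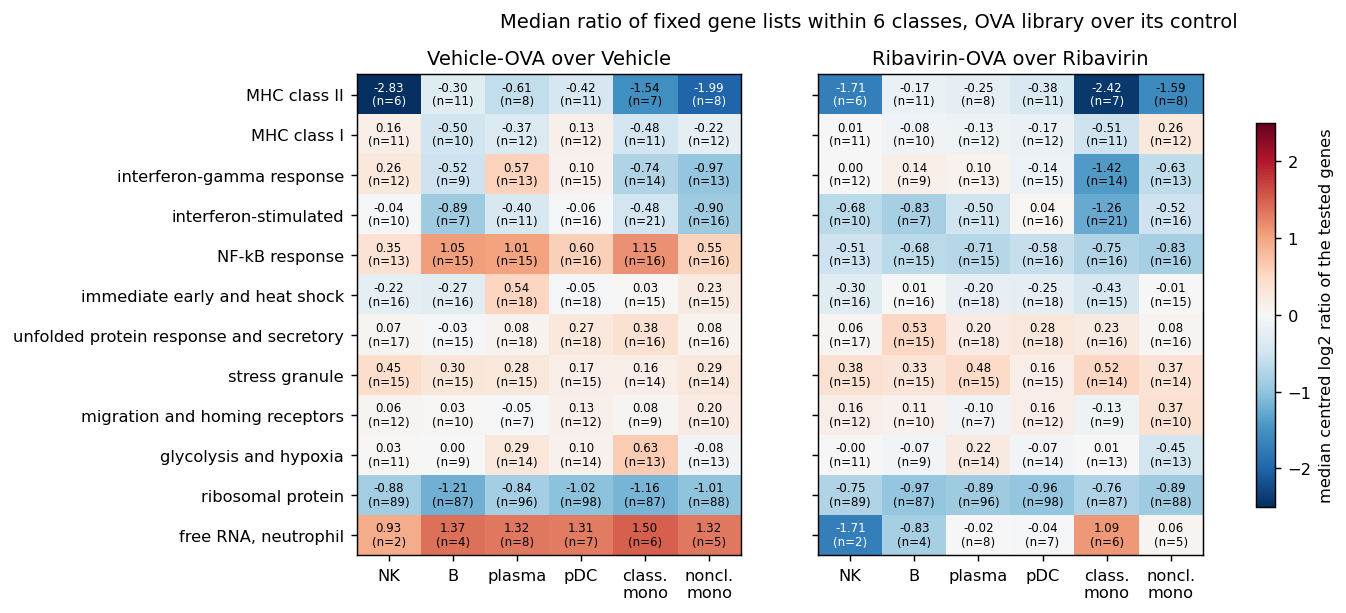
Median centred log2 ratio of fixed gene lists (rows) in NK-, B cell-, plasma cell-, pDC-, classical monocyte- and nonclassical monocyte-like cells (columns), for the Vehicle pair (left) and the ribavirin pair (right). Red is higher and blue lower in the OVA library, and n is the number of genes examined. NF-kB medians are 0.35 to 1.15 on the left and -0.83 to -0.51 on the right.

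RNA of neutrophils was also higher in each of the 6 classes of Vehicle-OVA. The 14 neutrophil genes of the free RNA list summed to 302 to 708 CPM in the 6 classes of Vehicle and to 1023 to 2125 CPM in Vehicle-OVA, and to 13779 and 35534 CPM over all filtered cells. The combined level of S100a8 and S100a9 in a class was 2.23 to 4.77% of the library level in Vehicle and 2.88 to 5.57% in Vehicle-OVA. Cxcl2, Ccl3 and Il1b, which the NF-kB list holds, were also high in the left-out Vehicle-OVA cells, at 12574, 2922 and 8532 CPM. In the ribavirin pair the neutrophil list had medians from -1.71 in NK-like cells to 1.09 in classical monocyte-like cells. The NF-kB medians of the 6 classes were -0.83 to -0.51 there. The part of neutrophil RNA in the NF-kB differences was not tested. Nfkb1, an NF-kB subunit, went from 122 to 347 CPM in B cell-like cells and stood at 149 and 584 CPM in the left-out cells.

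The genes past the limit in the Vehicle pair recurred in part in the ribavirin pair, which shares no library with it. In that pair the shares of the same genes lower were 5.2% in NK-, 6.19% in B cell-, 4.42% in plasma cell-, 2.72% in pDC-, 6.3% in classical and 7.4% in nonclassical monocyte-like cells. The shares higher were 1.32%, 2.53%, 1.7%, 0.603%, 2.39% and 2.7% in the same order. Of the genes lower in the Vehicle pair, 40% (classical monocyte-like) to 63.7% (pDC-like) were also lower in the ribavirin pair, which is 44.8 to 65.6% of that pair's own lower genes. Of the higher genes, 11.6 to 27.2% were also higher there, 13.4 to 35.3% of that pair's own. Ribosomal protein genes are among the lower genes of both pairs.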

How the data were processed

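Per the labels and the methods, CD45+ cells of enzyme-digested nasal mucosa were loaded for 3' droplet libraries. The authors deposited 1 matrix of raw UMI counts per library, called cells only, without normalization, made with Cell Ranger 5.0.0 on mm10 per the submitters' processing notes. The deposited matrices hold 28277 cells for Vehicle and 19143 for Vehicle-OVA, and no immunoglobulin gene.

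From these counts, cells were filtered and the large classes left out as described. The members, the gates and the gene lists were chosen with earlier results of these data known. Classes used at least 2 summed UMIs of their gate genes. A cell past several gates went to the largest sum if it was at least 2 times the next, and was otherwise called mixed. In Vehicle-OVA, up to 8 cells of a leukocyte class (B cell- and nonclassical monocyte-like) lay exactly at the limit of 2 UMIs, and in Vehicle up to 64 (nonclassical monocyte-like). Ratios of CPM and of shares carry exact conditional binomial intervals at the 95% level. A level of 0 was bounded by 3 counts per library. For each class with at least 50 cells in both libraries, 3 rising and 3 falling genes with the most extreme centred ratios were named, among genes found in at least 5% of cells of the higher library and not higher in the left-out cells, besides the listed genes. Scripts were run in Python 3.11.15 with numpy 2.4.6, scipy 1.17.1, pandas 2.3.3 and leidenalg 0.10.2, and the gene comparison was tested on simulated counts.

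Doublets were not removed. A score from simulated doublets marked 1325 cells (5.15%) of Vehicle and 0 of Vehicle-OVA, where the expected rate is 7.66%, so the threshold did not work. The cells with the highest scores, at the expected rate, were left out as an alternative instead. Droplets also hold free RNA, whose size is given beside the results. No statistical test was made, since each group has 1 library.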

Additional observations from a re-analysis of the deposited data

How the results depend on the processing

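No paired analysis was possible because each group has 1 library, and no replicate could be left out. Except where stated, the cause of a shift was not tested. Values are log2 ratios or centred medians. Member share (reported -0.37): at least 1000 UMIs -0.56, large-class limit of 1 UMI -0.63, thinned to 1000 UMIs -0.070, and 3 of 6 alternatives stayed close. Class shares (92 of 110 alternatives stayed close). Under 5% mitochondrial UMIs, B cell-like cells (reported 0.83) reversed to -1.18 and pDC-like cells (-1.49) moved to -2.14. As a share of all filtered cells, the values were 0.46 and -1.86. With Leiden clusters, B cell-like was 0.51, plasma cell-like (-2.73) -1.92 and classical monocyte-like (-0.76) -3.81. With gates on all filtered cells, an alternative chosen after seeing the data, pDC-like was -1.76, plasma cell-like -2.08 and classical monocyte-like -0.082. With the limit of 1 UMI, cDC1-like (-0.90) was -0.16 and migratory DC-like (-1.52) -2.36. Thinned, NK-like (-2.18) was -2.65, ILC2-like (-0.40) 0.81, cDC2-like (-2.11) -1.01, migratory DC-like -0.83, classical monocyte-like reversed to 1.02 and nonclassical (-0.97) -0.14. Genes past 2-fold (52 of 60 stayed close): at least 200 UMIs per gene, which tests fewer genes, gave 192 in NK-like (reported 529), 239 in B cell-like (575), 339 in plasma cell-like (522), 209 in classical (500) and 297 in nonclassical monocyte-like cells (635). A pseudocount of 1 gave 1284 in plasma cell-like and 764 in pDC-like cells (304), and gates on all filtered cells 333 in plasma cell-like cells. Lists (240 of 260 stayed close): the IL-4 and IL-13 list of classical monocyte-like cells (1.61) was 0.50 at 20 UMIs per gene, 5.40 at 200 and 0.69 with gates on all cells. Class II was 0.084 in B cell-like cells (-0.30) on plain CPM, a reversal, and -0.60, -0.18 and -0.67 in pDC-like cells (-0.42) at 200 UMIs, on plain CPM and under 5% mitochondrial UMIs. In classical monocyte-like cells (-1.54) class II was -1.36 at 200 UMIs, -1.33 on plain CPM, -1.73 as a mean over cells, -2.08 with gates on all cells and -1.82 without the highest cell of each gene, and in nonclassical cells (-1.99) -1.68 with gates on all cells. NF-kB was 1.64 in classical cells (1.15) at 200 UMIs, and in nonclassical cells (0.55) 1.15 at 200 UMIs, 1.33 as a mean over cells and 1.05 with gates on all cells. On plain CPM the stress granule list of B cell-like cells (0.30) was 0.69 and the unfolded protein list of plasma cell-like cells (0.08) 0.35. The interferon-stimulated list of nonclassical cells (-0.90) was -0.25 with gates on all cells. Of the named genes, 228 of 347 values stayed close, 117 moved and 2 reversed, Saa3 to 0.37 in nonclassical monocyte-like cells with gates on all cells and Gzmc to -0.32 in NK-like cells without the highest cell. Leaving out the top-scored doublets, chosen after seeing the data, reversed none of these results. A comparison without cells past the doublet threshold was not run, since that threshold marked no Vehicle-OVA cell. Thinning to equal depth moved several shares, but the set rule was applied to the thinned counts. These shifts therefore mix depth with a changed set, and the part of each was not tested. The shares cannot be read closely for this reason.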
